A study of Mus musculus with 6 samples.

Results

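Genes of 9 surface proteins that are used to sort blood stem and progenitor cells were followed in bone marrow cells of wild-type and Ppp2ca knockout mice: Kit, Ly6a, Slamf1, Cd48, Procr, Flt3, Cd27, Cd34 and Fcgr3. They were the rows whose gene symbol equals one of these names, 9 of 52550 genes listed, and all 9 were among the 20136 genes tested. The cells are labelled as primary hematopoietic stem cells from bone marrow. The 3 wild-type (WT) libraries came from mice with the genotype Ppp2caf/f, and no Cre is named for them. The 3 knockout (KO) libraries came from mice with the genotype VAV1crePpp2caf/f, so both groups carried the floxed alleles and only KO carried Vav1-Cre, a driver active in blood cells generally and not only in stem cells. The sources used here give no ages, strain, number of animals or surface gate. Whether each library is a separate animal is not said, and a p-value here reflects only how far these libraries vary, which may be technical.

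Stem and progenitor cells have no single defining protein, so they are sorted by combinations of surface proteins. Mouse stem cells are found among cells that carry Kit and Sca-1 but no markers of mature lineages, and within them the SLAM code separates stem cells, which carry CD150 and lack CD48, from multipotent progenitors. EPCR narrows the stem cell gate further, Flt3 marks progenitors primed toward lymphoid and myeloid fates, and CD34 with the Fc receptors CD16 and CD32 divides the myeloid progenitors. RNA levels of bulk samples do not give the share of cells in any such gate: fewer cells of a type and less RNA per cell cannot be told apart.

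Of the 9 genes, 6 fell, 1 rose and 2 did not pass the test (limma on log2(value + 1), Benjamini-Hochberg adjusted p below 0.05 over all genes tested). The stem cell genes Slamf1 and Procr fell most, to 20.05% and 22.3% of their WT means, followed by Flt3 (33.4%), Cd27 (35.7%), Cd34 (41.7%) and Kit (63.4%). Fcgr3, the marker of granulocyte-monocyte progenitors in this set, rose to 129% of its WT mean. Cd48 and Ly6a stood at 91.8% and 78.2% and their groups overlapped. The median log2 fold change of the 9 genes was −1.32, beside −0.02 over all genes tested. Changes were common in this comparison: 23.3% of all genes tested passed in either direction, 13.0% lower and 10.3% higher in KO. The KO values lay wholly below the WT values for 6 of the 9 genes and wholly above for 1, against 21.7% and 19.1% of all genes tested, or 40.9% without overlap in either direction.

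**Figure D1:**
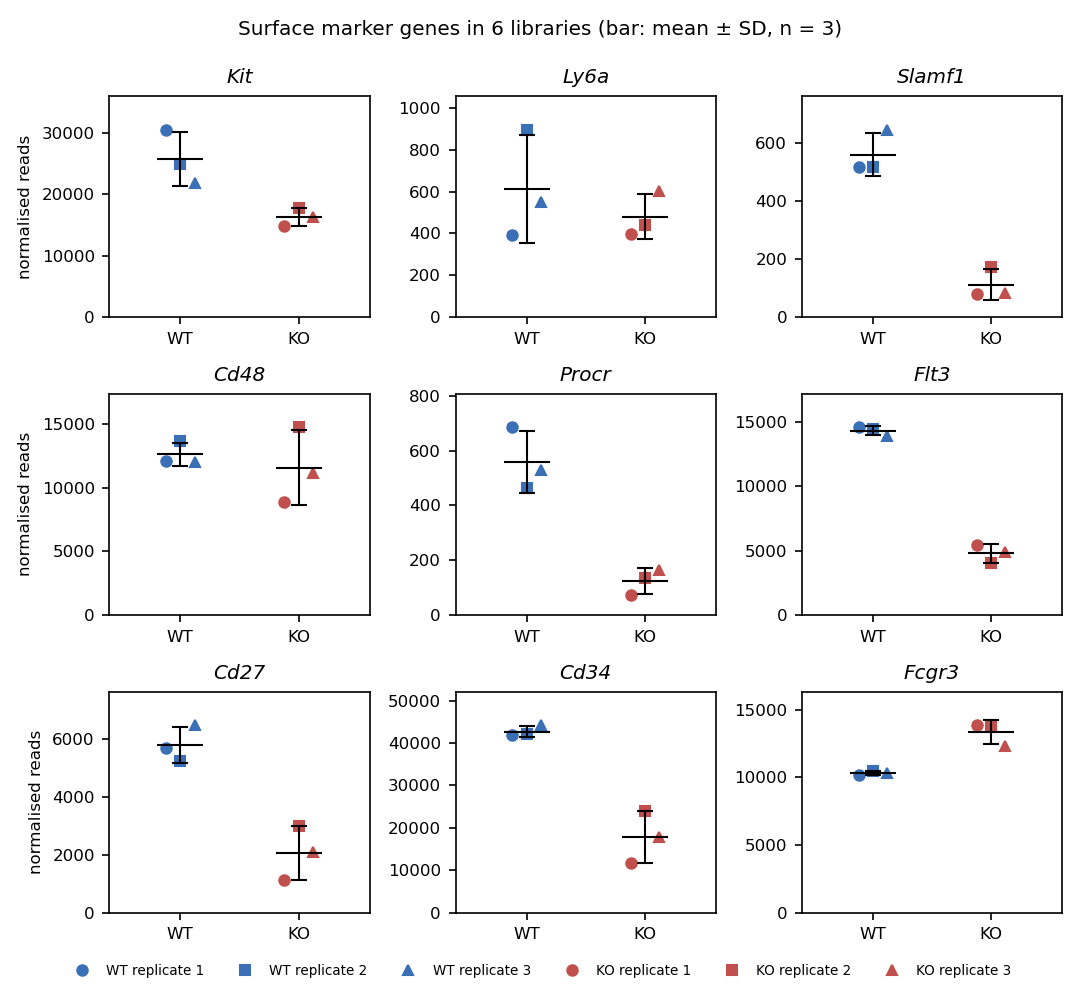
Normalised reads (vertical axis, from 0) of each gene in the 3 WT (blue) and 3 KO (red) libraries, with symbols for the replicate number and black bars for mean ± SD (n = 3). KO points lie below all WT points for Kit, Slamf1, Procr, Flt3, Cd27 and Cd34, above them for Fcgr3, and among them for Ly6a and Cd48.

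The libraries held 37951985 to 58692037 reads over genes and each of the 9 genes had at least 67 of them in every library. Ppp2ca, the targeted catalytic subunit of protein phosphatase 2A, fell from 33176 ± 271 to 23398 ± 862 normalised reads (SD, n = 3 each), or 70.5% of the WT mean. These are values of the whole gene, and the deleted part was not analysed here. Genes of other cell types were read as well. Granulocyte-monocyte progenitor genes summed to 1288550 to 1528520 normalised reads in WT and 1902580 to 2114180 in KO, and 9 of the 12 listed rose and 1 fell. B cell marker genes summed to 18599 to 25117 in WT and 5205 to 6968 in KO; of 12 listed, 7 were tested, 1 fell and 0 rose. The gene that fell was Ighm, with means of 19951 and 3381, while Cd79b averaged 2632 and 2533 and was not called, and Ebf1 and Pax5 were at 0 in all 6 libraries. The mature T cell gene Cd8a was also at 0 in all 6 libraries. Of 14 genes of mature lineages that are used to exclude cells from the gate and could be matched, 12 were tested, 5 fell and 0 rose. Il7r, Cd5 and Cd4 had WT means of 180, 33.1 and 101.4 and KO means of 22.5, 1.31 and 23.0, while Ptprc, the pan-leukocyte antigen CD45, had means of 19361 (WT) and 16374 (KO) and was not called. The calls of Cd4 and Cd5 were each lost in 5 of 20 alternative analyses, and the count of falls was 9 with library quality weights, 3 without the intensity trend and 2 to 7 when one library was left out: 2 without WT replicate 3, 3 without WT replicate 1, WT replicate 2 or KO replicate 3, and 7 without KO replicate 2. Erythroid marker genes summed to 54912 to 61541 in WT and 12130 to 13829 in KO, and 10 of 12 fell.

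The first gate is made by Kit and Sca-1. Kit encodes the receptor tyrosine kinase for stem cell factor (ENSMUSG00000005672.12, GRCm38 chromosome 5, 75574916 to 75656722, plus strand). Its normalised reads were 30498, 24829 and 21823 in WT replicates 1 to 3 and 14807, 17786 and 16314 in KO replicates 1 to 3. Each KO library lay below the lowest WT library. KO differed from WT by −0.65 ± 0.13 (log2, SE; limma adjusted p = 0.0119). Without the intensity trend of the variance, the adjusted p was 0.0655 and Kit was no longer called.

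Ly6a encodes Sca-1, a small lipid-anchored protein of the Ly6 family that interferons can induce (ENSMUSG00000075602.10, chromosome 15, 74994877 to 74998031, minus strand). Its values were 394, 896 and 549 in WT and 398, 439 and 602 in KO. WT replicate 2 was the highest of the 6 and WT replicate 1 the lowest, so the WT libraries alone spanned 2.27-fold. KO differed from WT by −0.29 on the log2 scale (95% confidence interval −1.01 to 0.43, limma adjusted p = 0.555). Without WT replicate 2 it was 0.021. Identical sequence shared with a paralog was small: 1.45% of the 100-base windows of its annotated transcripts also occur in Ly6c1, and similar windows were not counted. Ly6c1 itself averaged 259 in both groups. Of the 9 Ly6 family genes tested, 1 fell and 0 rose, beside 13.0% and 10.3% of all genes tested. That gene was Ly6d, a marker of lymphoid-committed progenitors, with 204, 156 and 109 normalised reads in WT and 0, 7.86 and 0 in KO. Ly6c2, whose protein marks monocyte-lineage cells, averaged 43199 in WT and 49233 in KO, Ly6g 21.99 and 39.7, and Ly6k 53.7 and 73.2, and none of these passed. Ly6c2 passed as higher without WT replicate 2 (log2 fold change 0.38, adjusted p = 0.0405 in limma).

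The SLAM code rests on 2 neighbouring genes of chromosome 1 that differed from each other. Slamf1 encodes CD150, a receptor that binds itself on other cells (ENSMUSG00000015316.11, 171767127 to 171801184, plus strand). Its values were 516, 515 and 644 in WT and 79.3, 172 and 84.6 in KO. The highest KO library, KO replicate 2, lay below every WT library. KO differed from WT by −2.39 ± 0.32 (log2, SE; limma adjusted p = 0.00261). Among the 12066 genes tested with a mean of at least 100 normalised reads, 1.91% had a fold change as low or lower.

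Cd48 encodes a lipid-anchored SLAM family protein that binds CD244 and CD2 (ENSMUSG00000015355.13, 171682009 to 171705258, plus strand). Its values were 12107, 13657 and 12017 in WT and 8827, 14717 and 11133 in KO. KO replicate 2 was the highest of all libraries and KO replicate 1 the lowest. In KO the level differed by −0.15 on the log2 scale (95% confidence interval −0.55 to 0.25, limma adjusted p = 0.583). Without KO replicate 1 it was 0.026. The ratio of Slamf1 to Cd48 normalised reads, not divided by length, was lower in every KO library than in any WT library: the log2 ratio averaged −4.50 ± 0.26 in WT and −6.75 ± 0.31 in KO (SD, n = 3 each), a difference of −2.25 or 4.76-fold. For this ratio, the exact two-sided permutation test gave p = 0.1, the smallest that 3 libraries against 3 allow (adjusted p = 0.144 over the 36 pairs of the 9 genes).

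Promoter sequences of the pair are shown because they are neighbouring SLAM genes, are transcribed in the same direction and differed in their change. They run 5′ to 3′ on the gene's strand, from 250 bases before to 50 bases after the start in RefSeq (GRCm38.p6), Slamf1 at chr1:171766882-171767181 and Cd48 at chr1:171681742-171682041. Capitals mark matches, on either strand, to cores bound by blood transcription factors: GATAA (GATA factors), TGTGGT (RUNX), GGAAGT (ETS) or TTGCNNAA (C/EBP), which share no bases with each other here. These motifs occur in 25.8%, 16.9%, 24.1% and 10.8% of the 300-base promoters of 27025 genes.
Slamf1: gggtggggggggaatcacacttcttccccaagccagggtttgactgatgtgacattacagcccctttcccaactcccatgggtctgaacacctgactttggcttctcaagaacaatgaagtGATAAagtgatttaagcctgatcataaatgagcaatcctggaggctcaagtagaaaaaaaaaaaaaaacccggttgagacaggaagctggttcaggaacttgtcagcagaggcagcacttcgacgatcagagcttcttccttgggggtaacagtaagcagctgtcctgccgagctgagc
Cd48: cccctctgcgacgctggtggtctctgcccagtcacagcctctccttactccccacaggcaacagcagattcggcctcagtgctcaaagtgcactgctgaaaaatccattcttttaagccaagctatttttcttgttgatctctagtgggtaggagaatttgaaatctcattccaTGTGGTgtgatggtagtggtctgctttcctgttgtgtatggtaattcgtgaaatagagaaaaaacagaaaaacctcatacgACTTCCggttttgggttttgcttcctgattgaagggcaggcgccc
Slamf1 held 1 GATA core. Cd48 held 1 RUNX core and 1 ETS core. A match describes the letters in the window and is not a binding site.

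Of the 9 SLAM family genes, all tested, 3 fell and 0 rose: Slamf1, Cd84, whose protein binds itself like CD150, and Slamf6, a receptor of lymphocytes. Cd84, the next annotated gene on the plus strand after Slamf1, went from 4673, 4138 and 4316 to 2004, 2379 and 2252 normalised reads (log2 fold change −0.99, adjusted p = 0.00122 in limma). Slamf6 averaged 174 in WT and 45.3 in KO (−1.89, adjusted p = 0.0119 in limma). Cd244, the gene of the CD48 receptor, had means of 1752 (WT) and 1563 (KO) and was not called (adjusted p = 0.477 in limma), nor was Ly9 (2438 and 1741, adjusted p = 0.0709 in limma). Cd244 and Ly9 overlap on opposite strands, and no source used here says whether counting used strand, so their reads may not be fully separated. Slamf7 (means of 56.8 and 13.2) and Slamf8 (43.4 and 9.27) stood low in both groups and did not pass, and Slamf9 had 118 in KO replicate 1 and 32.8 or less in the other 5 libraries. With library quality weights, equal totals, DESeq2 or KO replicate 2 left out, 5 family members fell.

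**Figure D2:**
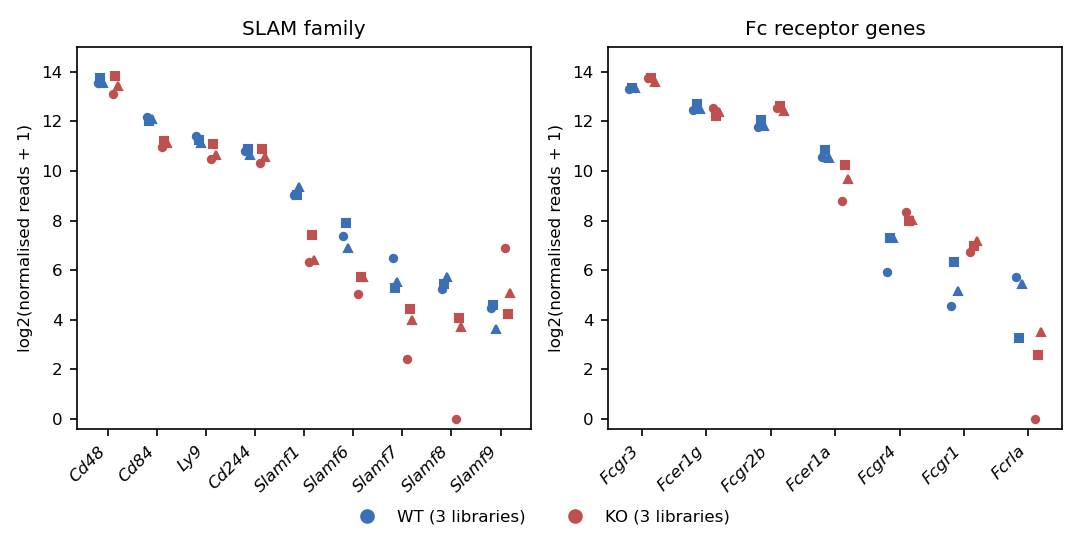
Log2(normalised reads + 1) of the tested SLAM family genes (left) and Fc receptor genes (right), ordered by WT mean, in 3 WT (blue) and 3 KO (red) libraries; symbols give the replicate number. Cd48, Cd244 and Slamf9 overlap between groups while Slamf1, Cd84, Slamf6, Ly9, Slamf7 and Slamf8 do not. Fcgr3, Fcgr2b, Fcgr1 and Fcgr4 lie higher in KO, Fcer1a lies lower, and Fcer1g and Fcrla overlap.

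Procr encodes the endothelial protein C receptor EPCR, an anticoagulant receptor that also marks stem cells (ENSMUSG00000027611.12, chromosome 2, 155751117 to 155755471, plus strand). Its values were 684, 462 and 529 in WT and 71.8, 137 and 166 in KO. The difference, KO minus WT, was −2.22 ± 0.34 (log2, SE; limma adjusted p = 0.00400). It was as low or lower in 2.42% of genes averaging 100 or more. The log2 ratio of Slamf1 to Procr differed by −0.18 between KO and WT with overlapping groups (exact permutation p = 0.8), and by 0.23 without KO replicate 3. The Procr promoter (chr2:155750967-155751266, plus strand, RefSeq GRCm38.p6) is shown beside that of Slamf1 as the other stem cell gene of the largest falls, with capitals as above.
Procr: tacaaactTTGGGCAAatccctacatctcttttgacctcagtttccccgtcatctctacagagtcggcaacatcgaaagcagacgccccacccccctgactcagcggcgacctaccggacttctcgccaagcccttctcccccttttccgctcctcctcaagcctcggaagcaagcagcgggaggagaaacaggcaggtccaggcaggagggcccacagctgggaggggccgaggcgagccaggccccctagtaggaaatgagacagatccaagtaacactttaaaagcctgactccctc
It held 1 C/EBP match and no GATA core, so these windows of Slamf1 and Procr shared none of the motifs searched. Procr and Cd34 are also endothelial genes. Of 12 endothelial marker genes, 11 were tested, 10 fell and 1 rose, and they summed to 16369 to 20173 normalised reads in WT and 5854 to 9287 in KO. Cdh5, which encodes the cadherin of endothelial junctions, was at 0 in all 6 libraries, the 1 gene of this list to be so. Pecam1 averaged 5229 in WT and 3117 in KO, Eng 4338 and 1415, and Tie1 1930 and 399. Flt1, the gene that rose, averaged 221 in WT and 958 in KO. The part of endothelial genes in these results was not tested.

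Flt3 and Cd27 mark progenitors that retain lymphoid potential. Flt3 encodes a receptor tyrosine kinase of the same class as Kit (ENSMUSG00000042817.15, chromosome 5, 147330741 to 147400489, minus strand). Its values were 14589, 14480 and 13955 in WT and 5438, 4028 and 4894 in KO. Both groups were tight and far apart. The log2 difference between genotypes was −1.59 ± 0.12 (log2, SE; limma adjusted p = 0.000428), and it stayed between −1.74 and −1.47 in all 20 alternatives. Flt3 also belongs to the dendritic cell markers, of which 9 of 12 fell, Flt3 included, with sums of 29336 to 35308 in WT and 10686 to 11744 in KO. Flt3 itself made up much of each sum, with means of 14342 in WT and 4787 in KO. The sums are therefore not separate from the fall of Flt3. The part of dendritic cell genes in the result was not tested.

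Cd27 encodes a receptor of the tumor necrosis factor family (ENSMUSG00000030336.14, chromosome 6, 125232622 to 125237010, minus strand). Its values were 5689, 5254 and 6480 in WT and 1126, 2994 and 2096 in KO. KO libraries differed among themselves by 2.66-fold, yet the highest lay below the lowest WT library. Between genotypes the level differed by −1.59 ± 0.31 (log2, SE; limma adjusted p = 0.0103), and the adjusted p of limma was 0.0526 without the intensity trend, which ended the call. The fold changes of Flt3 and Cd27 were alike on average but not in each library: the log2 ratio of Flt3 to Cd27 averaged 1.31 in both groups, with an SD of 0.18 in WT and 0.92 in KO. Cd27 is also read in lymphocytes, and T and NK cell marker genes moved too: of 10 tested, 6 fell and 1 rose. Their sums were 34665 to 36133 in WT and 42026 to 44528 in KO, with Cd3e at 8.56 or less in every library. Most of each sum was Nkg7, the gene that rose, with means of 34159 in WT and 42658 in KO. The sums therefore follow Nkg7 and not the genes that fell. The part of T and NK cell genes in the result was not tested.

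Cd34 and the Fc receptors divide the myeloid progenitors. Cd34 encodes a sialomucin (ENSMUSG00000016494.9, chromosome 1, 194938819 to 194961279, plus strand). Its values were 41869, 42118 and 44209 in WT and 11711, 23958 and 17787 in KO. WT libraries spanned 1.06-fold, while KO libraries spanned 2.05-fold. The difference, KO minus WT, was −1.32 ± 0.23 (log2, SE; limma adjusted p = 0.00602). Its family members Podxl (67.2 in WT and 50.2 in KO) and Podxl2 (16.8 and 4.57) stood low and did not pass.

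Fcgr3 encodes CD16, a low-affinity receptor for immunoglobulin G (ENSMUSG00000059498.13, chromosome 1, 171051174 to 171064935, minus strand). Its values were 10207, 10477 and 10363 in WT and 13864, 13864 and 12332 in KO. Even the lowest KO library, KO replicate 3, lay above all WT libraries. The log2 difference between genotypes was 0.37 ± 0.08 (log2, SE; limma adjusted p = 0.0147). The rise was small, and 21.9% of the genes averaging 100 or more had a fold change as high or higher. The call was lost with equal totals (0.22, adjusted p = 0.0836), with quantile normalization (0.19, adjusted p = 0.130) and without the intensity trend (adjusted p = 0.0885), all in limma. The Fcgr3 promoter (chr1:171059354-171059653, minus strand, RefSeq GRCm38.p6, the first of 2 entries) is shown as that of the 1 gene that rose, with capitals as above.
Fcgr3: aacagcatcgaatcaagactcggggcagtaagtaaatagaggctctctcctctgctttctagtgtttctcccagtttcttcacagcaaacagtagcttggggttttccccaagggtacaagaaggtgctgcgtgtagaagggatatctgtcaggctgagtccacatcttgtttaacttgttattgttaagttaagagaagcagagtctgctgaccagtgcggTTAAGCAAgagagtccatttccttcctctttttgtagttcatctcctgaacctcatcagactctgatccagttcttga
It held 1 C/EBP match, as the Procr promoter did. The window lies inside the gene as annotated for the counts, whose first base on the minus strand is 171064935.

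Antibodies to CD16 and CD32 bind the products of Fcgr3 and Fcgr2b together, and Fcgr2b, the inhibitory Fc receptor, rose as well. Its values were 3497, 4209 and 3571 in WT and 5885, 6226 and 5465 in KO (log2 fold change 0.64 ± 0.10 SE, adjusted p = 0.00492 in limma). Few windows were identical between the genes: 2.54% of the 100-base windows of Fcgr3 transcripts also occur in Fcgr2b. Similar windows that are not identical were not counted, so reads of the genes may not be fully separated. Of 7 Fc receptor genes tested, 3 rose and 0 fell. The third was Fcgr1, the high-affinity receptor, with means of 45.4 and 123.4 (adjusted p = 0.0495 in limma), a call lost in 12 of 20 alternatives. Fcgr4 averaged 125 in WT and 278 in KO (adjusted p = 0.0563 in limma). Fcer1g, the signalling chain that CD16 needs at the surface, averaged 6002 and 5347 and did not pass, nor did the mast cell and basophil gene Fcer1a (1600 and 822) or the low gene Fcrla (34.2 and 5.09). With equal totals or without the intensity trend 1 Fc receptor gene rose, and under 7 alternatives, KO replicate 2 left out among them, 1 fell. Kit, Cd34 and Fcgr3 are also expressed by mast cells, whose marker genes with those of basophils summed to 44209 to 50766 in WT and 15852 to 23864 in KO, with 5 of 8 tested genes lower. The mast cell proteases Mcpt4, Tpsb2 and Tpsab1 were at 0 in all libraries. Other genes of this list were not: Cpa3 averaged 7180 in WT and 3701 in KO, Hdc 10801 and 7082, and Ms4a2 1330 and 399. The part of mast cell and basophil genes in the results was not tested. Mature neutrophil genes, 3 of 12 of which rose and 2 fell, summed to 89934 to 147901 in WT and 124004 to 269630 in KO. Macrophage genes, 5 of 12 of which fell and 0 rose, summed to 61591 to 75282 in WT and 27759 to 34854 in KO. Most of each macrophage sum was Lyz2, with means of 51365 in WT and 20807 in KO. Cd68 averaged 1925 in WT and 2416 in KO and Ccr2 3004 and 3512, and neither was called. The part of neutrophil or macrophage genes in the rise of Fcgr3 was not tested.

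**Figure D3:**
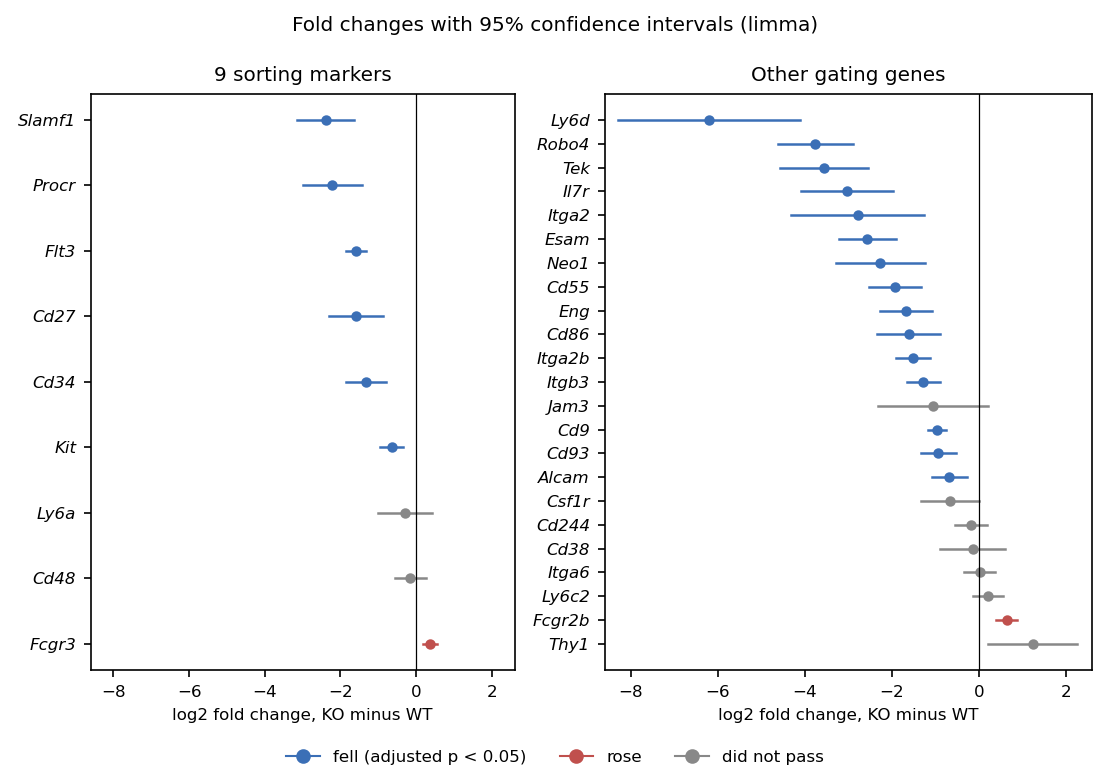
Log2 fold changes, KO minus WT, with 95% confidence intervals from limma for the 9 sorting markers (left) and other genes used in stem and progenitor gates (right); blue fell, red rose, grey did not pass. Slamf1 and Procr lie lowest among the 9, and Fcgr3 and Fcgr2b are the points that rose.

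The 9 genes were also compared with each other. To set levels of different genes side by side, normalised reads per kb of annotated exon were used. In WT the order was Cd48 (10592), Fcgr3 (5961), Cd34 (5862), Kit (2886), Cd27 (2495), Flt3 (2322), Ly6a (509), Procr (275) and Slamf1 (90.7). The means stood in the same order in KO, where Cd48 was at 9722, Fcgr3 at 7692, Cd34 at 2444, Kit at 1829, Cd27 at 890, Flt3 at 775, Ly6a at 398, Procr at 61.4 and Slamf1 at 18.2. Neighbours whose ranges overlapped in WT were Fcgr3 and Cd34, Kit and Cd27, Cd27 and Flt3, and Ly6a and Procr. In KO the overlapping neighbours were Cd48 and Fcgr3, Cd34 and Kit, and Cd27 and Flt3. The order at the top depends on the length used: per kb of the longest transcript, Cd34 led in WT and Fcgr3 in KO. Slamf1 reached 0.823%, 0.728% and 1.04% of the Cd48 level per kb in WT and 0.174%, 0.226% and 0.147% in KO. The gene that stem cells are gated against was thus the highest of the 9 per kb of exon in both groups.

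**Figure D4:**
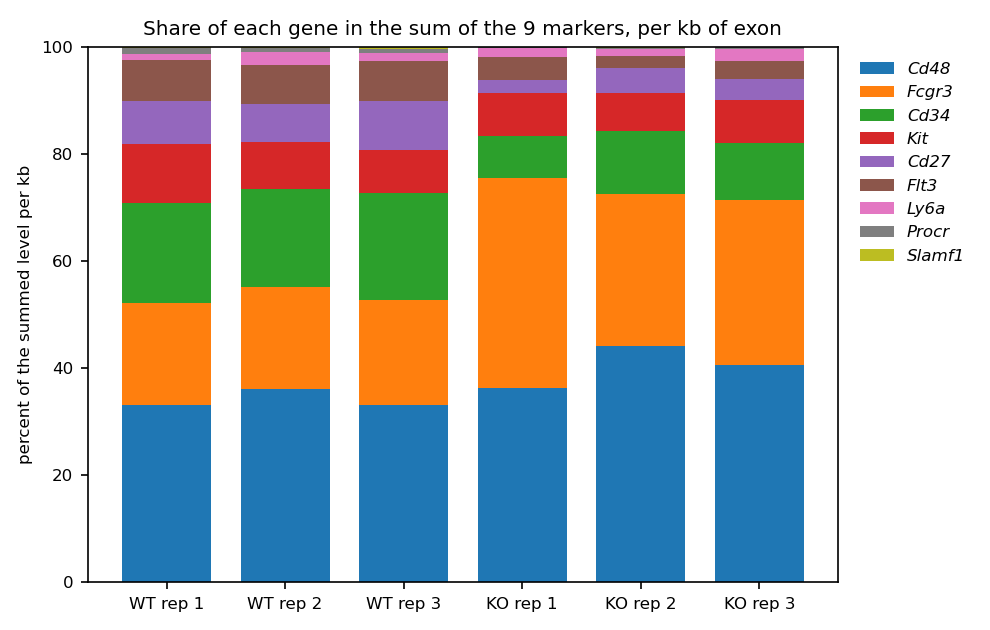
Share of each gene in the sum of the 9 genes, in normalised reads per kb of exon, for each of the 6 libraries; stacked bars reach 100 percent. Fcgr3 holds 19.0% to 19.6% in WT and 28.5% to 39.1% in KO, while Cd34 goes from 18.2% to 19.9% to 7.87% to 11.7%.

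As shares of the summed level per kb, Cd48 held 34.2% ± 1.76 in WT and 40.4% ± 3.90 in KO (SD, n = 3 each), and Fcgr3 held 19.2% ± 0.32 and 32.8% ± 5.58. Cd34 held 18.9% ± 0.89 and 10.1% ± 1.98, with no overlap between groups. The sum itself was 30453.9 to 31742.1 per kb in WT and 20420.4 to 28044.5 in KO. A share could therefore be larger in KO without a higher level, and the mean of Cd48 per kb was 10592 in WT and 9722 in KO. Ratios within a library do not depend on scaling between libraries. The log2 ratios are of normalised reads not divided by length, which leaves the difference between KO and WT the same, so they do not say which gene of a pair is higher. Of the 36 pairs, 25 had WT and KO ratios that did not overlap and 11 did, and no pair could go below p = 0.1 in the exact permutation test (adjusted p = 0.144). Among all single genes tested, 40.9% had no overlap between WT and KO values. A matching share over pairs of other genes is not given here. The pairs reuse the same genes, so their count is not separate from the calls of the single genes. The ratio of Cd34 to Fcgr3, the axes of the myeloid progenitor gate, was 97.7%, 95.7% and 101.6% per kb of exon in WT. In KO it was 20.1%, 41.1% and 34.3%, a log2 difference of −1.69. Per kb of the longest transcript it was 180.4%, 176.8% and 187.6% in WT and 37.1%, 76.0% and 63.4% in KO. Which of the 2 genes stood higher in WT thus depends on the length used. The ratio of Kit to Fcgr3 differed by −1.01. Between the receptor kinases, the log2 ratio of Kit to Flt3 was 0.83 ± 0.21 in WT and 1.77 ± 0.35 in KO (SD, n = 3 each), a difference of 0.95. Relative to Cd48, Flt3 differed by −1.44 and Procr by −2.08, without overlap. Cd34 to Kit differed by −0.67 without overlap, whereas Cd34 to Cd27 differed by 0.27 with overlapping groups (exact permutation p = 0.2). The difference of Slamf1 to Flt3 was −0.81, also with overlap (exact permutation p = 0.3). The ratio of Ly6a to Kit differed by 0.35 with overlap (exact permutation p = 0.5), and by −0.0535 without WT replicate 1.

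**Figure D5:**
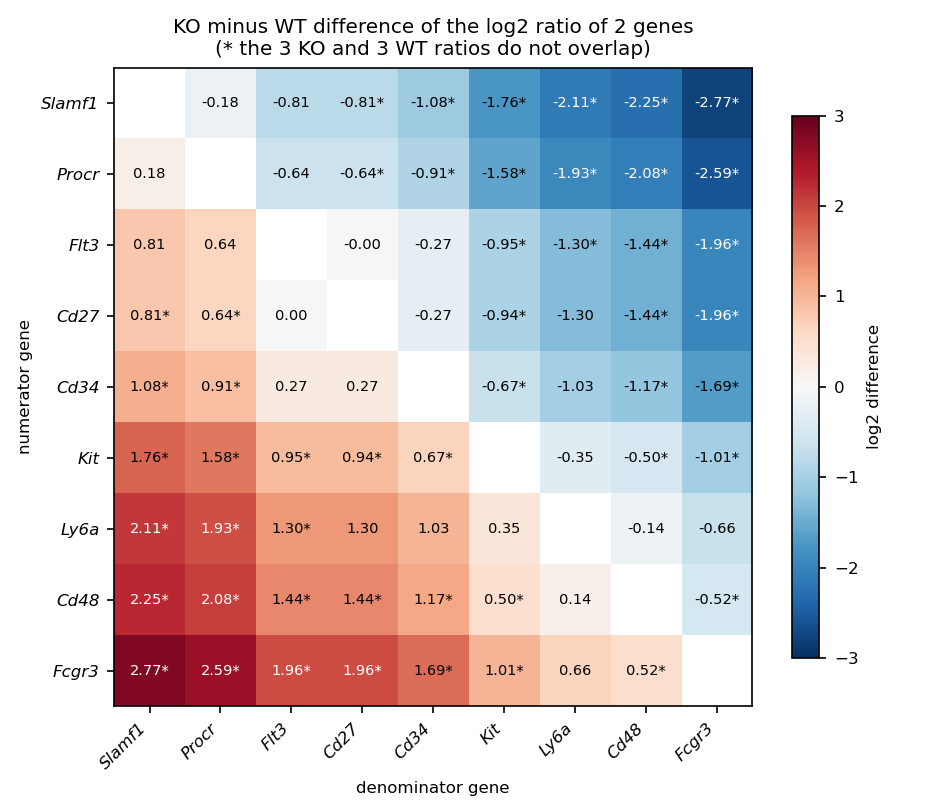
Difference between KO and WT in the mean log2 ratio of each pair of the 9 genes (row over column), as a heatmap with the value in each cell; a star marks pairs whose 3 WT and 3 KO ratios do not overlap. The largest difference is that of Slamf1 to Fcgr3 at −2.77, and Flt3 to Cd27 stands at −0.0018.

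The KO libraries did not lie equally low. KO replicate 1 was the lowest KO library for 7 of the 9 genes and KO replicate 2 the highest for 6. Among all genes called lower in KO, KO replicate 1 was lowest in 67.0% and KO replicate 2 highest in 51.4%, and among all genes tested in 42.2% and 38.0%. Flt3 ran the other way, highest in KO replicate 1 and lowest in KO replicate 2. The neutrophil marker sum was 269630, 124004 and 187634 in KO replicates 1 to 3, with replicates 1 and 2 at opposite ends, and the sum of 16 stem cell transcription factor genes was 36051, 41576 and 41716. Their part in the spread was not tested. Without KO replicate 1 the log2 fold changes were −2.19 for Slamf1, −1.87 for Procr, −1.05 for Cd34 and −1.21 for Cd27, and the same 6 genes fell and Fcgr3 rose.

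Most other genes of the same gates fell. Of 25 further surface genes used to subdivide stem and progenitor cells, all tested, 17 fell, 1 rose and 7 did not pass, and their log2 fold changes had a median of −1.28. Among those that fell were the tetraspanin gene Cd9 (−0.96), the guidance receptor gene Robo4 (−3.75) and the adhesion gene Esam (−2.57). The gene that rose was Fcgr2b. Itga6, the integrin CD49f, averaged 4553 in WT and 4658 in KO and was not called, and it is named here after its value was seen. For comparison, 10 of 16 stem cell transcription factor genes fell and 0 rose, with a median of −1.17, among them Mycn (−3.07), Gfi1b (−2.30), Mecom (−2.23) and Gata2 (−1.76).

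Of 14 genes of ligands and direct partners of the 9 proteins, 11 were tested, 4 fell and 0 rose. Flt3l, the ligand of Flt3, had 388, 289 and 308 normalised reads in WT and 126, 225 and 149 in KO (−1.003, adjusted p = 0.0341 in limma), a call lost in 8 of 20 alternatives. F2r, the thrombin receptor that EPCR works with, fell from 6092 to 1298 (−2.29), and Pf4, a platelet chemokine that binds protein C, from 7443 to 1064 (−2.78). Pf4 is also a megakaryocyte gene, and megakaryocyte markers summed to 33266 to 35726 in WT and 6385 to 9005 in KO, with 10 of 12 lower; their part in the result was not tested. The count of falls in this list was 2 without the intensity trend and 2 to 4 when one library was left out. Kitl, the Kit ligand, was at 53.3 or less in every library, and Cd70, the ligand of CD27, was at 0 in all.

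Signalling proteins downstream of these receptors were read as a list of 30 genes. Of these, 28 were tested, 6 fell, 2 rose and 20 did not pass, beside 13.0% of all genes tested called lower and 10.3% called higher, with a median of −0.12. The Src-family kinase gene Fyn fell (−1.73) and so did the phospholipase gene Plcg1 (−0.73). Cbl, the ubiquitin ligase that removes active Kit and Flt3, rose from 1964, 2369 and 1833 to 3498, 3693 and 3884 (0.85 ± 0.12 SE, adjusted p = 0.00289 in limma). Traf3, an adaptor of tumor necrosis factor receptors, rose (1.42). With equal totals 10 of these genes fell. Within the receptor kinase class of Kit and Flt3, Csf1r averaged 6766 in WT and 4526 in KO and Pdgfrb 1195 and 1093. Neither passed, so 2 of 4 tested members fell. Csf1r passed with the replicate number as a block (adjusted p = 0.0482), with library quality weights (adjusted p = 0.0393) and without KO replicate 2 (adjusted p = 0.0260), all in limma.

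The genes whose pattern over the 6 libraries was most like each marker were taken from 10795 tested genes averaging 100 or more, leaving out the 9 genes, mitochondrial genes and genes with a predicted, Riken or clone name, by Pearson r of log2(value + 1). These r values include the step between genotypes, so they are descriptions and carry no p. Slamf1 was most like Txndc16 and Zfp87 (r of 0.997 each), Procr like Hivep3 and Cep41 (0.997 each), and Cd34 like St6galnac3 (0.9995) and Zfp773 (0.999). Kit was most like Pitpnc1 (0.997) and Ttc17 (0.995), Flt3 like Gbp9 (0.998) and Pls1 (0.997), and Cd27 like Muc13 and Dtnb (0.998 each). Gbp9 kept the order of Flt3 in KO, with 289, 236 and 250 normalised reads in WT and 20.4, 10.8 and 14.7 in KO. Fcgr3 was most like Tmem185a (0.996) and Pdxdc1 (0.991), Cd48 like Cdc16 (0.989) and Bbc3 (0.988), and Ly6a like Nhlrc1 (0.956) and Cdyl (0.951). High values were common: 725 genes exceeded 0.95 for Slamf1 and 721 for Cd34, against 35 for Cd48 and 2 for Ly6a.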

How the data were processed

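Per the labels' protocols, RNA was isolated by Trizol and 6 poly(A) libraries were built (VAHTS mRNA-seq v2 kit). The submitters' processing notes list HISAT2 and StringTie, with mm8 and mm10 as builds, and give no roles; the read counting step is not given in those sources. What the authors deposited is 1 signal value per gene, named expression per the file headers. All values (100%) were whole multiples of 1 step per library within 0.01 of a read, so they are read counts divided by a size factor per library, called normalised reads. Of 52550 identifiers, 49035 were in GENCODE M21 (GRCm38), all with the same start and end, and exon lengths come from there.

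KO was compared with WT (3 libraries each) by limma 3.58.1 in R 4.3.3 (intensity trend) on log2(value + 1), for genes of at least 1 in at least 3 libraries, with Benjamini-Hochberg adjustment over 20136 genes and a threshold of 0.05. Adding 1 makes fold changes of low genes too small. Count tests on recovered reads (edgeR 4.0.16, DESeq2 1.42.0) and other scalings, filters and left-out libraries were alternatives. Ratios within a library were tested by exact two-sided permutation (scipy 1.17.1). The procedure was also run on simulated counts in which far fewer genes changed than were called here, with outcomes not reported here. That setting does not test the scaling between libraries. No 2 libraries agreed within sampling noise (chi-square per degree of freedom of 38.0 to 209), so each counted once.

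The members and lists were chosen with earlier results of these data known. Named were the 9 genes, Ppp2ca, up to 4 genes of smallest p in each list, all tested SLAM, Fc receptor, receptor kinase and CD34 family genes, and 2 genes of most like pattern per marker. Genes of other cell types come from marker lists. Ptprc, Ly6c1, Itga6, Kitl, Cd79b, Nkg7 and the genes given as at or near 0 were named after their values were seen. The same holds for Cpa3, Hdc, Ms4a2, Pecam1, Eng, Tie1, Flt1, Lyz2, Cd68 and Ccr2. Promoters of 8 of the 9 genes were in the RefSeq table. One listed gene was not analysed here, and some named by the rule are not reported here. Read depth limits counting error only.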

Additional observations from a re-analysis of the deposited data

How the results depend on the processing

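Slamf1, Procr, Cd34 and Flt3 fell under all 20 alternatives, with log2 fold changes from −2.75 to −2.06, −2.46 to −1.81, −1.57 to −1.05 and −1.74 to −1.47. Without the intensity trend, Kit (−0.65, adjusted p = 0.0655), Cd27 (−1.59, adjusted p = 0.0526) and Fcgr3 (0.37, adjusted p = 0.0885) were no longer called in limma. Fcgr3 was also not called with equal totals (0.22) and quantile normalization (0.19), so 0 of the 9 genes rose in those 3 settings. Equal totals lowered the median of all genes by 0.13 on the log2 scale. Ly6a and Cd48 were called in 0 of 20 alternatives. With one library left out, Ly6a ran from −0.57 to 0.021 (positive without WT replicate 2), Cd48 from −0.34 to 0.026 and Pdgfrb from −0.38 to 0.048 (both positive without KO replicate 1), and Podxl from −1.04 to 0.12 (positive without KO replicate 2). The causes were not tested.

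Over all genes, 2069 were higher and 2622 lower. The higher genes numbered 1071 without the intensity trend, 3198 with library quality weights and 1337 with equal totals, where 3510 were lower, so that 27.6% of calls were higher against 44.1%. Leaving out one library gave 978 to 1808 higher and 1617 to 2548 lower genes, with the fewest higher genes without KO replicate 3 and the fewest lower without WT replicate 1. Libraries that share a replicate number did not deviate together over all genes tested (correlations of −0.023, −0.011 and −0.021). Such correlations could miss a link confined to few genes, so they do not tell whether the libraries were paired. With the replicate number as a block in the fit, 1705 genes were higher and 2157 lower, the same 6 of the 9 genes fell and Fcgr3 rose; the block made 1 Fc receptor gene fall, and ended the calls of Fcgr1 (adjusted p = 0.0612) and Flt3l (adjusted p = 0.0727).

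In the other lists, 2 gating genes rose without the intensity trend and with quantile normalization, and 1 to 2 when one library was left out. Among partners, 1 rose with library quality weights, 0 to 1 with one library left out, and 2 fell without the intensity trend (2 to 4 with one left out). With equal totals 10 signalling genes fell. In the SLAM family 5 fell with library quality weights, equal totals or DESeq2, and 3 to 5 with one library left out. Of the Fc receptor genes, 1 rose without the intensity trend and with equal totals, and 1 fell with robust eBayes, library quality weights, equal totals, a minimum of 5, the block or DESeq2 (0 to 1 with one library left out). Without the intensity trend 1 receptor kinase fell, and with quantile normalization 2 Ly6 genes fell; 0 to 1 Ly6 genes rose with one library left out. Lineage genes that fell numbered 3 without the intensity trend, 9 with library quality weights and 2 to 7 with one library left out.

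Per kb of the longest transcript, Cd34, Cd48 and Fcgr3 stood 1, 2 and 3 in WT with 30.6%, 23.3% and 16.8% of the sum, and in KO Fcgr3 stood 1 and Cd48 2, with 30.4% for Cd48 and 18.0% for Cd34. Cd27 and Flt3 shared places 5 to 6 depending on the library left out, in WT without WT replicate 3 and in KO without KO replicate 2. With one library left out, the ratio of Flt3 to Cd27 differed by −0.48 to 0.44, that of Ly6a to Kit by −0.0535 to 0.69 and that of Slamf1 to Procr by −0.42 to 0.23. The fewest reads of any of the 9 genes in a library were 67, of Procr in KO replicate 1.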
